A study of Homo sapiens with 3 samples.

Results

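The MYC, MAX and MXD network was examined in H660 cells, a human neuroendocrine prostate cancer line, treated for 24 h with vehicle (DMSO), 2.5 μM JG231 or 5 μM JG231. JG231 is an allosteric inhibitor of the chaperone HSP70, which the study examined as a route to lower N-Myc protein. Each condition had 1 RNA-seq library of parental cells, so there was no replicate, no standard deviation and no p-value, and every difference given here is between single libraries. The 10 genes, out of 58735 rows in the table, were chosen by name (MYC, MYCL, MYCN, MAX, MXD1, MXD3, MXD4, MXI1, MNT and MGA) when the FPKM values of these 3 libraries were already known. Their values are therefore a description and not independent evidence.

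MYC-family proteins are transcription factors of the basic helix-loop-helix leucine zipper class. They bind DNA only as dimers with MAX, mostly at the E-box CACGTG, and raise transcription of genes for growth and ribosome production. The MXD proteins, MNT and MGA take the same partner to the same sites and mostly recruit repressors, so the members compete for MAX. In neuroendocrine tumours of the prostate and lung, MYCN or MYCL often takes the place that MYC has in other carcinomas.

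The regulatory sequences of the members were looked at for the network's own site. RefSeq promoters (build GRCh38.p14) were found for 9 of the 10 genes, as 14 annotated starts. MYC was not among them and was not searched. For the others the 250 bases before each start were searched on both strands. The E-box CACGTG was present before the starts of MXD4 and MNT, in 2 of the 14 promoters, and in 6.34% of all 35116 RefSeq promoters. Both genes, whose products occupy this site with MAX, had lower RNA at both doses, as given below. So did MYCL and MGA, which had no CACGTG match. The change of MNT at 2.5 μM was within the spread of genes of its level. A link between the motif and the RNA was not tested. The stretches that hold the motif are shown with the E-box in capitals, at chr4:2262312-2262359 on the minus strand for MXD4, where it begins 238 bases before the start, and at chr17:2401218-2401283 on the minus strand for MNT, where it begins 193 bases before the start.
MXD4: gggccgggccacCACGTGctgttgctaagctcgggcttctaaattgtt
MNT: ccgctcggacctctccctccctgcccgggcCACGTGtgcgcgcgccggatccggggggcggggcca

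The promoter of MYCL is shown because this was the member that was lowered most among those above 1 FPKM. Its 250 bases before the RefSeq start lie at chr1:39901918-39902167 on the minus strand and hold none of the motifs searched, so all letters are in lower case. In the gene annotation used below MYCL runs from 39895428 to 39902256. The stretch shown therefore lies inside the gene of that annotation, whose start is further upstream. The GC content of the 250 bases was 74.4%, against a median of 58% over all RefSeq promoters.
MYCL: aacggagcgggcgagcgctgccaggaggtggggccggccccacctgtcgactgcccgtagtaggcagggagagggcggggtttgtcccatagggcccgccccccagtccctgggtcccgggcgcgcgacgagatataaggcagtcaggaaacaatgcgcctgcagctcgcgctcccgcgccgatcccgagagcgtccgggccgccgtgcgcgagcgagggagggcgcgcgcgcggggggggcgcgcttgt

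The other motifs searched were the E-box variant CACGCG, found for MGA and in 9.72% of all promoters, the AP-1 site TGANTCA, found for MXD3 and in 6.57%, and the cyclic AMP response element TGACGTCA, found in 0 member promoters and in 1.65% of all. A match is only a run of letters, and no binding was measured.

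The values are FPKM, fragments scaled to transcript length and library size, so levels of different genes can be set side by side. Changes between libraries still varied with transcript length, as given below. Sums, shares and ratios across genes were not corrected for this. From the smallest steps of the FPKM values the libraries held about 16100000 fragments with DMSO, 20400000 with 2.5 μM and 24100000 with 5 μM JG231. Of the markers fixed for the cell type, the neuroendocrine granule protein CHGA stood at 46.0, 15.05 and 12.7 FPKM in DMSO, 2.5 μM and 5 μM. Of the 3 epithelial markers EPCAM was at 302, 262 and 261 FPKM, while KRT8 was higher with JG231, at 224, 414 and 505, and so was KRT18, at 170, 299 and 380. The mesenchymal marker VIM was higher as well, at 2.52, 8.43 and 6.38 FPKM, COL1A1 was at 0.82, 0.74 and 1.27, and the stromal DCN and the leukocyte marker PTPRC were listed at 0 throughout. The sample records call the cells prostatic adenocarcinoma, yet of the prostate luminal markers KLK3 did not exceed 0.134 FPKM, TMPRSS2 was under 1 FPKM throughout, and KLK2 was listed at 0 in all 3 libraries. The FPKM values of SYP, ENO2 and NCAM1 were also below DMSO at both doses. SYP at 5 μM, NCAM1 at 2.5 μM and INSM1 at 2.5 μM had log2 changes of -0.25, -0.35 and 0.29, each smaller than the spread of genes at their level between the JG231 libraries (0.28, 0.44 and 0.30). In bulk RNA fewer cells of a kind and less RNA per cell cannot be told apart. The part of these marker shifts in the values of the network was not tested. Mitochondrial and small RNA genes took 40.4%, 24.6% and 29.2% of the FPKM sum. Over the 13785 genes that averaged 1 FPKM or more, the median log2 change from DMSO was -0.01 at 5 μM as deposited, and -0.38 once the remaining genes were scaled to equal sums. At 2.5 μM it was -0.28 after that scaling.

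In vehicle-treated cells MYCL, which encodes L-Myc, was the most abundant member, and MYC took that place in both JG231 libraries. In the DMSO library the order of FPKM levels was MYCL, MXI1, MAX, MXD4, MXD3, MYC, MGA, MNT, MXD1 and MYCN. At 2.5 μM it was MYC, MXI1, MAX, MXD3, MYCL, MXD4, MXD1, MNT, MGA and MYCN. At 5 μM it was MYC, MAX, MXI1, MXD4, MXD3, MYCL, MXD1, MNT, MGA and MYCN. Some neighbours in these orders had overlapping 95% Poisson intervals. In DMSO these were MXI1 with MAX, MAX with MXD4, MXD4 with MXD3, MGA with MNT, and MXD1 with MYCN. In both JG231 libraries MXI1 and MAX overlapped, as did MNT and MGA, and so did each next pair among MXD3, MXD4 and MYCL. Intervals of this kind cover counting error only, since fragments copied by PCR are not independent molecules.

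**Figure D1:**
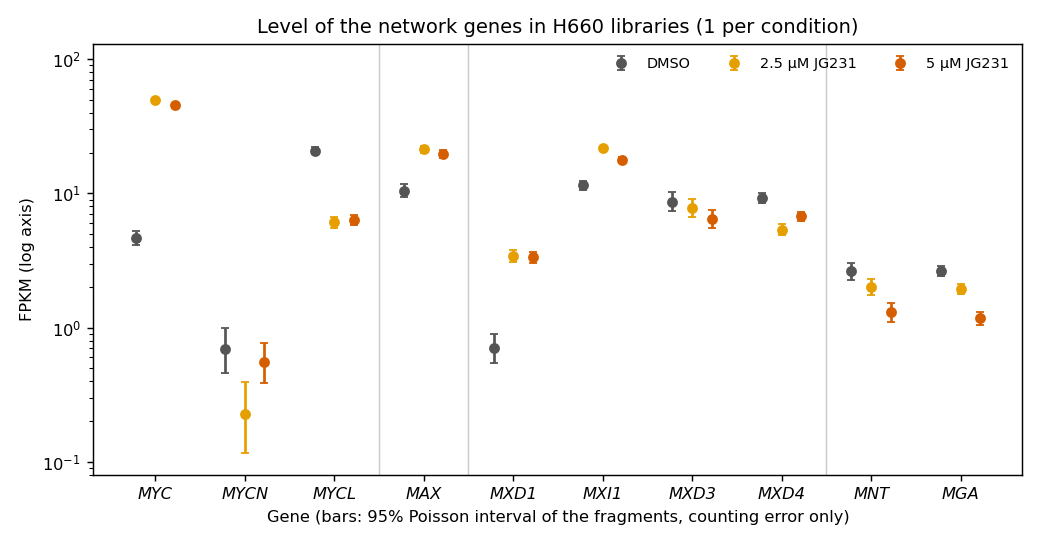
FPKM (log axis) of the 10 genes in the DMSO, 2.5 μM and 5 μM JG231 libraries, 1 point per library, with bars for the 95% Poisson interval of the fragments. MYC goes from 4.62 to 49.9 and 45.5, MYCL from 20.9 to 6.11 and 6.33, and MYCN is under 1 in every library.

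Changes were taken as log2 of (FPKM + 0.1) against DMSO, and a gene was counted as higher or lower where its FPKM was over 1 in either library and its change was past 0.25. The pseudocount and both limits were taken from the study's methods, and a gene listed at 0 in one library entered only if the other was over 1 FPKM. On this scale the change of a low gene comes out too small. In place of a replicate error, each change is set beside a spread. This is how much the 500 genes closest to it in mean FPKM varied in log2 between the 2 JG231 libraries, as a robust standard deviation. The spread includes any effect of dose and does not involve the DMSO library.

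Of the 10 members 9 passed the filter on low values, and MYCN did not. At 5 μM, 4 members were higher, against 36.5% of the 15765 genes that passed, and 5 were lower, against 45.1%. At 2.5 μM, 4 were higher, against 36.4% of 15746 genes, 4 were lower, against 43.4%, and MXD3 was within the threshold. With so few members these shares are near those of all genes, and nothing about the network as a whole is read from them. Past a log2 change of 1, MYC and MXD1 were higher at 5 μM (14.7% of all genes) and MYCL and MGA lower (24.3%). At 2.5 μM MYC, MAX and MXD1 were higher by that much (12.9%) and MYCL was lower (21.7%). The doses share the DMSO library as their control, so their changes are not independent.

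**Figure D2:**
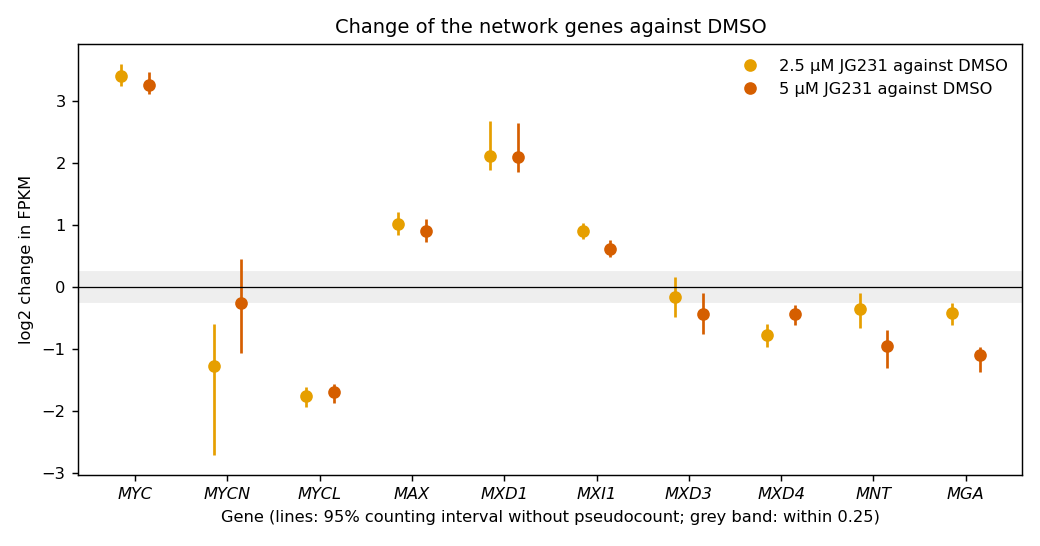
log2 change in FPKM of each gene against DMSO at 2.5 μM and 5 μM JG231 (points), with lines for the 95% counting interval computed without pseudocount and a grey band for changes within 0.25. MYC, MAX, MXD1 and MXI1 lie above the band at both doses and MYCL, MXD4, MNT and MGA below it. The interval of MYCN at 5 μM spans 0.

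The activators moved in opposite directions. MYC (ENSG00000136997, chromosome 8, 127735434 to 127742951, plus strand, GRCh38), which encodes c-Myc, had 4.62 FPKM with DMSO, 49.9 with 2.5 μM and 45.5 with 5 μM JG231. Both JG231 libraries were far above DMSO and close to each other. The level was 10.8-fold that of DMSO at 2.5 μM and 9.84-fold at 5 μM, 3.40 and 3.27 on the log2 scale for a spread of 0.25. The counting interval at 5 μM was 3.12 to 3.48, from about 277 fragments in DMSO and 4071 at 5 μM. Among the genes that passed the filter, MYC ranked at place 439 from the top at 2.5 μM and 409 at 5 μM.

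MYCL (ENSG00000116990, chromosome 1, 39895428 to 39902256, minus strand) had 20.9 FPKM with DMSO, 6.11 with 2.5 μM and 6.33 with 5 μM JG231. The DMSO library was the high one and the 2 doses did not differ beyond counting error. The level was 3.42-fold lower at 2.5 μM and 3.30-fold lower at 5 μM, -1.76 and -1.70 on the log2 scale for a spread of 0.30. The antisense gene MYCL-AS1 overlaps it, and was at 0.48 FPKM on about 6 fragments in DMSO and listed at 0 in both JG231 libraries. The sample records describe stranded libraries, but no source says whether strand was used in counting. Without it reads of such a pair cannot be told apart.

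MYCN (ENSG00000134323, chromosome 2, 15940550 to 15947007, plus strand), which encodes N-Myc, had 0.69 FPKM with DMSO, 0.23 with 2.5 μM and 0.56 with 5 μM JG231. It was the lowest member in all 3 libraries, resting on about 29, 12 and 35 fragments. The 2.5 μM library was the low one, and the 5 μM library lay near DMSO. The log2 change was -1.28 at 2.5 μM, with a counting interval of -2.72 to -0.60, and -0.27 at 5 μM, with an interval of -1.06 to 0.45. Genes of this low level had a spread of 1.69 between the JG231 libraries, which is larger than either change. On counting error alone the value at 2.5 μM lay below DMSO and that at 5 μM could not be told from it, and neither exceeded the spread of genes at this level. Whether some low values in the table are failed estimates was not tested. NOP2, a ribosomal RNA methyltransferase that dividing cells need, was at 0.17 and 0.10 FPKM and listed at 0 at 5 μM.

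Summed over the 3 activators, the FPKM was 26.2 with DMSO, 56.2 with 2.5 μM and 52.4 with 5 μM JG231, 2.15-fold the DMSO level at 2.5 μM, and 1.75-fold and 1.54-fold at the 2 doses when the libraries were scaled without mitochondrial and small RNA genes. The share of MYCL in this sum was 79.7% with DMSO, 10.9% at 2.5 μM and 12.1% at 5 μM. The share of MYC was 17.6%, 88.7% and 86.8%, and that of MYCN 2.65%, 0.40% and 1.07%. RNA shares say nothing of the amounts of the proteins, which were not measured in these libraries. A share within a sum does not depend on the scaling of the libraries.

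**Figure D3:**
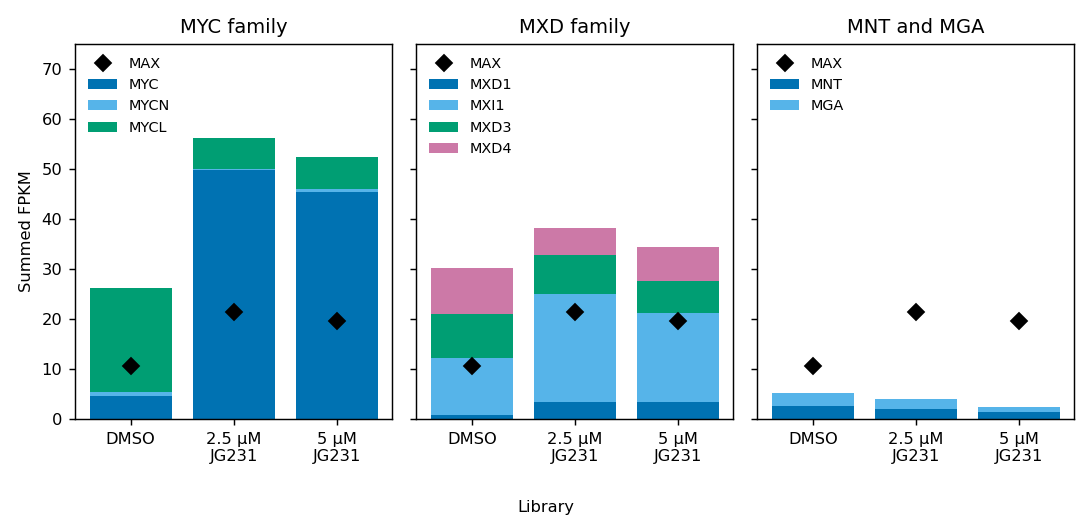
Summed FPKM of the MYC family, of the MXD family and of MNT with MGA in each library, stacked by gene, with MAX as a black diamond. The MYC-family sum goes from 26.2 to 56.2 and 52.4 while its main part passes from MYCL to MYC, the MXD sum goes from 30.2 to 38.2 and 34.3, and the sum of MNT and MGA goes from 5.25 to 3.97 and 2.48.

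MAX (ENSG00000125952, chromosome 14, 65006174 to 65102695, minus strand), the common dimer partner of the other members, had 10.5 FPKM with DMSO, 21.3 with 2.5 μM and 19.7 with 5 μM JG231. Both JG231 libraries were higher, and they did not differ from each other beyond counting error. The log2 changes were 1.01 and 0.90 against a spread of 0.27, and 0.80 and 0.60 with the trend of change with transcript length removed. For each unit of MAX FPKM the 9 partner genes together had 5.87 with DMSO, 4.62 with 2.5 μM and 4.53 with 5 μM JG231. The ratio of MYC-family FPKM to MAX was 2.49, 2.64 and 2.66. Neither ratio was corrected for the length trend, whose removal made the increase of MAX smaller. FNTB, a farnesyltransferase subunit on the opposite strand that overlaps MAX, had 1.78, 2.60 and 3.61 FPKM. Its part in the MAX value was not tested.

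The MXD family, whose proteins pair with MAX and recruit SIN3 and histone deacetylases, was split. MXD1 (ENSG00000059728, chromosome 2, 69897688 to 69942945, plus strand), typical of differentiating cells, had 0.70 FPKM with DMSO, 3.41 with 2.5 μM and 3.34 with 5 μM JG231. It was the member with the largest increase after MYC, 4.84-fold and 4.75-fold the DMSO level, 2.12 and 2.10 on the log2 scale for a spread of 0.63. About 63 fragments stood behind the DMSO value. In the annotation used here MXD1 overlaps SNRNP27, a splicing factor gene on the same strand, which had 10.1, 22.5 and 22.3 FPKM. How far reads were shared between them was not tested.

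MXI1 (ENSG00000119950, chromosome 10, 110207605 to 110287365, plus strand), also called MXD2, was the most abundant MXD gene in every library. It had 11.6 FPKM with DMSO, 21.6 with 2.5 μM and 17.8 with 5 μM JG231, with both JG231 libraries above DMSO and the lower dose the highest. The log2 changes were 0.90 and 0.62 against a spread of 0.27. When the libraries were scaled without mitochondrial and small RNA genes the change at 5 μM was 0.24, within the threshold, while the median gene moved to -0.38.

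MXD4 (ENSG00000123933, chromosome 4, 2247432 to 2262109, minus strand), usually found in resting and differentiated cells, had 9.23 FPKM with DMSO, 5.37 with 2.5 μM and 6.77 with 5 μM JG231. It was lower at both doses, with -0.77 and -0.44 on the log2 scale for a spread of 0.35. MXD3 (ENSG00000213347, chromosome 5, 177301461 to 177312757, minus strand), the MXD gene linked to proliferating cells, had 8.70, 7.76 and 6.41 FPKM. Its log2 change was -0.16 at 2.5 μM, within the threshold and with a counting interval that includes 0 (-0.49 to 0.17), and -0.43 at 5 μM against a spread of 0.33. MXD3 has the shortest canonical transcript of the members, 1067 bp, and short transcripts tended to be higher after JG231. With that trend removed its changes were -0.54 and -0.97. It overlaps PRELID1 on the opposite strand and RAB24 on the same strand, which had higher FPKM in both JG231 libraries than in DMSO, and their part in the value was not tested.

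The MXD sum was 30.2 FPKM with DMSO, 38.2 with 2.5 μM and 34.3 with 5 μM JG231. The fold at 5 μM was 1.14, and it turned to 0.87 when the libraries were scaled without mitochondrial and small RNA genes, so no direction is given for the family sum. The share of MXI1 in it was 38.3%, 56.7% and 51.9%, and that of MXD4 30.6%, 14.1% and 19.7%. The ratio of MYC-family to MXD-family FPKM was 0.87 with DMSO, 1.47 with 2.5 μM and 1.52 with 5 μM JG231.

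MNT and MGA, the large MAX-binding repressors, were the members that differed most between the 2 doses among those over 1 FPKM. MNT (ENSG00000070444, chromosome 17, 2384073 to 2401104, minus strand), a SIN3-binding antagonist of MYC found in most cells, had 2.62 FPKM with DMSO, 2.02 with 2.5 μM and 1.31 with 5 μM JG231. MGA (ENSG00000174197, chromosome 15, 41621134 to 41773081, plus strand), the scaffold of a variant polycomb complex, had 2.63, 1.95 and 1.17 FPKM. Both had their highest value in DMSO and their lowest at 5 μM. The log2 changes of MNT were -0.36 and -0.95 at the 2 doses for a spread of 0.74. Those of MGA were -0.42 and -1.10 against a spread of 0.73, so the changes at 2.5 μM were within the spread of genes of this level. A pseudogene on the opposite strand that overlaps MGA, ENSG00000270702, had 2.46 FPKM with DMSO and was listed at 0 with JG231. Its DMSO value rested on about 12 fragments, and that of MGA on about 516. The part of the pseudogene in the MGA value was not tested.

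MGA and MNT are long transcripts, and long transcripts tended to be lower after JG231. The canonical transcript is 12193 bp for MGA and 4925 bp for MNT. For 11200 protein-coding genes, change and transcript length had a Spearman correlation across genes of -0.37 at 5 μM and -0.26 at 2.5 μM, and genes are not independent replicates. With the trend removed, the change of MGA was -0.06 at 2.5 μM, within the threshold, and -0.49 at 5 μM, and that of MNT was -0.27 and -0.75. MXD1, also long at 5549 bp, lay on the other side, at 2.25 and 2.36. The values of MYC were then 3.39 and 3.32, and those of MYCL -1.79 and -1.69.

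**Figure D4:**
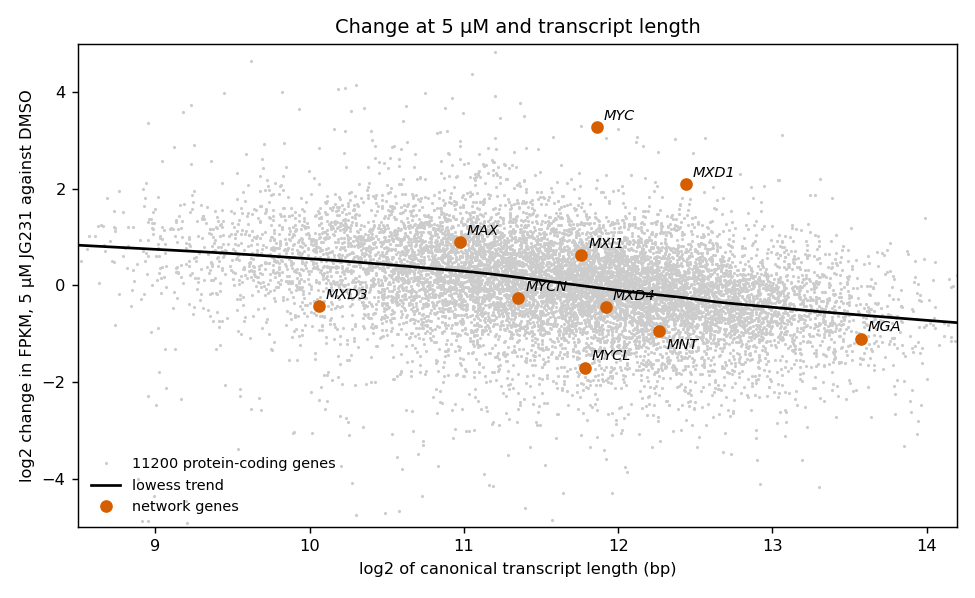
log2 change in FPKM at 5 μM JG231 against DMSO plotted over log2 of canonical transcript length for 11200 protein-coding genes that averaged 1 FPKM or more (grey), with the lowess trend (line) and the network genes (orange). MYC and MXD1 lie far above the trend, MYCL far below it, and MGA at the long end is 0.49 below it.

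The doses were also compared with each other, which does not involve the DMSO library. Of the 9 members that passed the filter, MXD4 was higher at 5 μM than at 2.5 μM (26.8% of 14197 genes) and MXI1, MXD3, MNT and MGA were lower (30.1%). MYC, MYCL, MAX and MXD1 were within the threshold of 0.25. When the libraries were scaled to equal FPKM sums, MYC and MAX passed it too, at -0.31 and -0.29, and MXD4 no longer did, so that 6 members were lower and 0 higher. No member that passed differed by more than 1, against 7.47% of all genes higher and 8.09% lower. The log2 differences were 0.33 for MXD4, -0.28 for MXI1, -0.27 for MXD3, -0.59 for MNT and -0.69 for MGA. MXI1 was just above its spread of 0.27 and the others were below theirs. The spread comes from these same 2 libraries, so here it only places a gene among others of its level. MXI1 was within the threshold with the length trend removed, at -0.23, and MXD3 with a pseudocount of 1, at -0.24, so that 3 members were lower in each case. The counting interval of MXD3 included 0 (-0.59 to 0.04). MYCN was 2.47-fold higher at 5 μM than at 2.5 μM, on 35 and 12 fragments, with a counting interval of 0.32 to 2.39 on the log2 scale, and its difference of 1.01 was under the spread of 1.69.

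The genes around the network were described with lists of its known partners and targets. The Mlx branch is a parallel network in which MLX takes the place of MAX and senses glucose with MLXIP (MondoA) or MLXIPL (ChREBP). MLX had 7.44 FPKM with DMSO, 17.6 with 2.5 μM and 18.8 with 5 μM JG231, 1.23 and 1.33 on the log2 scale for a spread of 0.29. MLXIP went the other way, with 17.2, 10.6 and 8.12 FPKM and -0.69 and -1.07 on the log2 scale for a spread of 0.30. Its transcript is long, 8390 bp, and with the length trend removed its changes were -0.44 and -0.61. TXNIP, its best known target and an inhibitor of glucose uptake, had 107, 83.0 and 74.4 FPKM, with log2 changes of -0.37 and -0.53. ARRDC4, another MLXIP target, had 1.496, 1.434 and 2.011 FPKM and log2 changes of -0.06 and 0.40, within a spread of 0.82. MLXIPL was under 1 FPKM in every library. So MAX and MLX, the common partners of the 2 branches, were both higher at each dose, and MLXIP was lower.

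Of 19 cofactors of MYC, all of which passed the filter, 6 were higher and 10 lower at 5 μM, and 4 were higher and 9 lower at 2.5 μM. The shares at 5 μM, 31.6% higher and 52.6% lower, were near the 36.5% and 45.1% of all genes, and those at 2.5 μM were 21.1% and 47.4% against 36.4% and 43.4%. The median log2 change of the cofactors was -0.27 and -0.20, against -0.11 and -0.08 over all genes that passed. With the length trend removed it was -0.06 at 5 μM against -0.15, so the list then stood on the other side of all genes, and at 2.5 μM it was -0.16 against -0.15. The histone acetyltransferase KAT5 (TIP60) had 4.35, 10.96 and 16.6 FPKM, and ZBTB17, the MIZ1 protein through which MYC represses genes, had 11.3, 28.6 and 24.4. SMARCB1, a chromatin remodelling subunit that binds MYC, was higher as well, with log2 changes of 1.04 and 1.18. BPTF, a nucleosome remodelling factor with a long transcript, had 4.95, 2.65 and 2.35 FPKM. With the length trend removed, the 5 μM change of BPTF in log2 was -0.47 instead of -1.04. The elongation kinase CDK9 was also lower, at -0.71 in log2 with 5 μM. The MYC-binding HCFC1, a transcript of 8876 bp, had changes of -0.51 and -0.54, and of -0.25 and -0.05 with the trend removed, both then within the threshold.

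The 15 genes of the SIN3 and histone deacetylase complexes, which MXD proteins and MNT recruit, held 6 higher and 7 lower at 5 μM and 7 higher and 6 lower at 2.5 μM, with medians of -0.08 and -0.03. The medians over all genes were -0.11 and -0.08, and the shares of all genes were 36.5% higher and 45.1% lower at 5 μM and 36.4% and 43.4% at 2.5 μM. With the length trend removed the list medians turned to 0.31 and 0.20, so no direction is given for the list. HDAC1 had 76.4, 43.1 and 38.9 FPKM, -0.82 and -0.97 on the log2 scale for a spread of 0.21. RBBP7, a histone chaperone of the complex, and SUDS3, a SIN3 subunit, were lower too, with log2 changes of -0.63 and -1.19 at 5 μM. ING2, which reads methylated histone H3, went from 8.02 to 36.3 and 25.5 FPKM, and SAP30, a SIN3-associated protein, from 13.7 to 39.5 and 39.3. BRMS1, another SIN3-associated protein, had log2 changes of 1.31 and 1.10.

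Of the 12 partners of MGA in the variant polycomb complex PRC1.6, 7 were higher and 3 lower at each dose, with medians of 0.26 at 5 μM and 0.49 at 2.5 μM. These are 58.3% and 25% of the list, against 36.5% and 45.1% of all genes at 5 μM and 36.4% and 43.4% at 2.5 μM. Where only genes averaging 5 FPKM or more were kept, the list medians of 0.26 and 0.35 were close to those of all genes, 0.20 and 0.18. At 5 μM the median turned to -0.11 when the libraries were scaled without mitochondrial and small RNA genes, where that of all genes that passed was -0.53. The ubiquitin ligase subunits RING1 and RNF2 changed by 1.31 and 1.27 in log2 with 5 μM, and the adaptor YAF2 had 1.22, 4.36 and 5.08 FPKM. MGA itself was lower, as were CBX3 and TFDP1, which read methylated histone H3 and pair with E2F6, with log2 changes of -0.32 and -0.29 at 5 μM. HDAC1, HDAC2, WDR5 and CBX3 each belong to 2 of the lists.

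**Figure D5:**
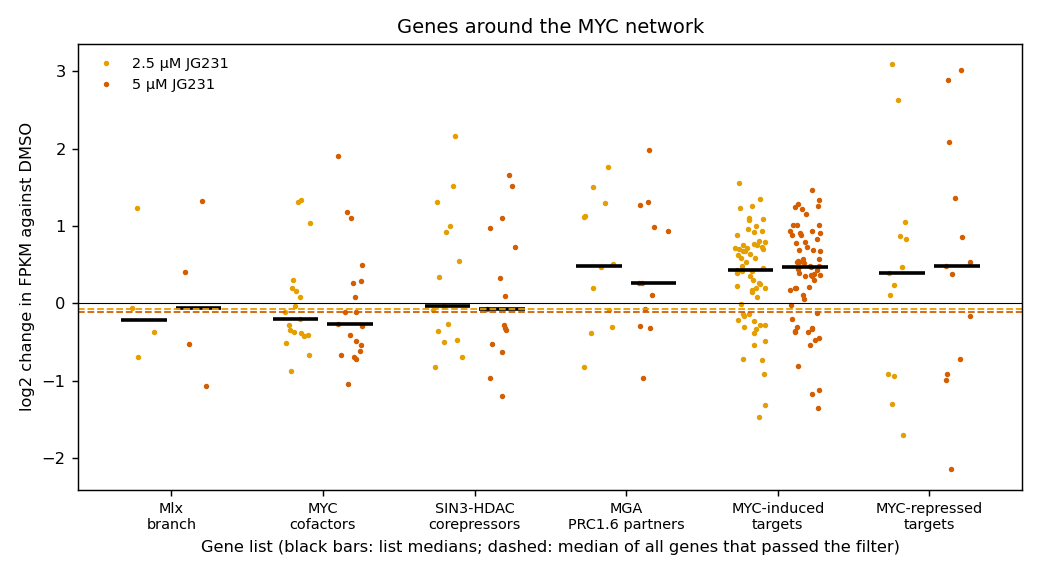
log2 change in FPKM against DMSO of the genes of 6 lists at 2.5 μM and 5 μM JG231, 1 point per gene that passed the filter, with black bars for list medians and dashed lines for the median of all genes that passed. The medians of MYC-induced and MYC-repressed targets are both above 0, at 0.46 and 0.49 at 5 μM.

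The list of MYC-induced targets held 67 genes, of which 63 passed the filter. Of these 41 were higher and 13 lower at 5 μM, and 39 were higher and 12 lower at 2.5 μM. The shares of higher genes, 65.1% and 61.9%, stood against 36.5% and 36.4% of all genes, and those of lower genes, 20.6% and 19.0%, against 45.1% and 43.4%. The median log2 change was 0.46 and 0.44. It was 0.29 and 0.25 with the length trend removed, and 0.08 and 0.14 when the libraries were scaled without mitochondrial and small RNA genes, where the median over all genes that passed was -0.53 and -0.40. Where only genes averaging 5 FPKM or more were kept, the list median was 0.53 at 5 μM and 0.48 at 2.5 μM, and that of all genes was 0.20 and 0.18.

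Ranked by the smaller of the changes at the 2 doses, the genes that led the increases were NDUFAF4, an assembly factor of respiratory complex I, with 10.3, 24.6 and 24.7 FPKM, AIMP2, a scaffold of the tRNA synthetase complex, with 17.7, 37.9 and 41.2, and FARSA, a tRNA synthetase subunit, with 39.6, 83.9 and 93.9. The glycolytic enzyme HK2 had 6.36 FPKM with DMSO, 2.23 with 2.5 μM and 2.42 with 5 μM JG231, -1.47 and -1.36 on the log2 scale for a spread of 0.50. The nucleoside transporter SLC29A2 and the ribosome assembly factor UTP20 were lower as well, with log2 changes of -1.18 and -1.13 at 5 μM. With the length trend removed these were -1.38 and -0.63. The classical target ODC1, the first enzyme of polyamine synthesis, had log2 changes of 0.73 and 0.46, and the nucleolar protein NCL had -0.28 and -0.34. ODC1, NCL, ARRDC4 and NOP2 were named after their values were seen.

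Genes that MYC is known to repress were described in the same way. Of 17 listed, 13 passed the filter, with 8 higher and 4 lower at 5 μM and 7 higher and 4 lower at 2.5 μM. The shares were 61.5% higher and 30.8% lower at 5 μM, against 36.5% and 45.1% of all genes, and 53.8% and 30.8% at 2.5 μM, against 36.4% and 43.4%. The median log2 change was 0.49 and 0.39, and 0.11 and 0.10 when the libraries were scaled without mitochondrial and small RNA genes, where that of all genes was -0.53 and -0.40. Among genes averaging 5 FPKM or more it was 0.49 and 0.47, and that of all genes 0.20 and 0.18. The stress and growth arrest genes GADD45A and GADD45B had 66.0, 563 and 535 FPKM and 3.49, 22.0 and 26.4 FPKM. CDKN1A, the cyclin-dependent kinase inhibitor p21, had 97.6, 202 and 250 FPKM. The integrin ITGB1, the extracellular chaperone CLU and the differentiation gene NDRG2 were lower, and at 5 μM their log2 changes were -0.92, -0.99 and -0.71. NDRG2 changed by -1.30 at 2.5 μM, and its spread was 0.86. Many genes of both lists also answer to other factors, and the part of MYC in these values was not tested.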

How the data were processed

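H660 RNA-seq of 3 libraries was analysed, 1 per condition, grouped by sample title. The authors deposited gene-level FPKM values in 1 table of 58735 Ensembl genes. The study's methods name HISAT and StringTie, whereas the submitters' processing notes name HISAT2 and featureCounts with GRCh38 and hg38. Versions and the annotation release are not given in the sources used here. Methods and sample records also differ in the RNA input. The members and lists were chosen with earlier results of these data known.

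Gene identifiers were looked up in GENCODE 44, where 58207 were found. The FPKM step worth 1 fragment was estimated on single-transcript genes after multiplying by their length, and 86.5% to 90.2% of values under 50 fragments were within 0.1 of a whole number. Fragments of a gene were computed with its canonical transcript length and are only approximate where a gene has more than 1 transcript. Intervals at 95% are exact Poisson for levels and Clopper-Pearson for ratios, and cover counting error only. FPKM values are not counts, so no count model was used, and with 1 library per condition no test.

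Changes used a pseudocount of 0.1, a threshold of 0.25 and an FPKM over 1 in either library. Alternatives were pseudocounts of 1 and 0.01, no filter, a mean FPKM of at least 5, scaling to equal FPKM sums (of all genes, or leaving out mitochondrial and small RNA genes), subtracting the median gene's change, removal of the length trend by lowess (fraction 0.3), a threshold of 1, and summing rows of 1 symbol. Named genes were all members, up to 2 overlapping or neighbouring genes of each with FPKM over 0, up to 3 higher and 3 lower genes per list by the smaller change of the 2 doses (same sign at both, mean FPKM at least 1), and the 3 protein-coding genes nearest to MYCN and to MYC over the 3 log2 values. Cell type markers, genes that failed the filter and 4 genes said to be named after their values were seen stand outside this rule. Lists were written from general knowledge. Some cell type markers are not reported here. Scripts were tested on simulated data. Scripts ran in Python 3.11.15 with scipy 1.17.1 for intervals, statsmodels 0.14.6 for lowess, pandas 2.3.3 and numpy 2.4.6, and figures were drawn with matplotlib 3.10.9.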

Additional observations from a re-analysis of the deposited data

How the results depend on the processing

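The direction of change against DMSO of all 10 members was kept at both doses under both other pseudocounts, both scalings to equal sums and removal of the length trend. Centring moved these changes by under 0.01, the filters leave a single change as it is by construction, and summing rows of 1 symbol did not alter any member. Between the doses, MYCL changed sign under both scalings and MXD1 under removal of the length trend. The depth limits MYCN, with 12 to 35 fragments a library, and with 1 library per condition no alternative can stand in for a replicate. No paired analysis was possible because each condition has 1 library.

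With a threshold of 1, the members higher and lower were 2 and 2 at 5 μM, 1 was lower at 2.5 μM, and 0 and 0 differed between the doses. The 6 network lists held 131 distinct genes before the filter. At 5 μM these went from 69 higher and 37 lower to 24 and 7. Over all genes that passed, the shares went from 36.5% and 45.1% to 14.7% and 24.3%. At 2.5 μM the list genes went from 65 and 34 to 23 and 4, and the shares of all genes from 36.4% and 43.4% to 12.9% and 21.7%. With a mean FPKM of at least 5, 3 members were lower at 5 μM, 2 at 2.5 μM and 2 between the doses, since fewer members were tested. Without a filter, 2 members were higher at 5 μM than at 2.5 μM, as MYCN then counts. With equal FPKM sums, 0 members were higher and 6 lower between the doses, and leaving out mitochondrial and small RNA genes 0 were higher and 4 lower. With all genes the summed FPKM at 5 μM was 1.83 times DMSO for the MYC family and 1.04 times for the MXD family. Without mitochondrial and small RNA genes, 42 network list genes were higher and 49 lower at 5 μM, and 48 were higher and 46 lower at 2.5 μM. So more list genes were then lower than higher at 5 μM. The sums were then 1.75 and 1.54 times DMSO for the MYC family at 2.5 and 5 μM, 1.66 and 1.44 for MAX, 0.62 and 0.36 for MNT with MGA, and 1.03 and 0.87 for the MXD family, the last reversed. This scaling lowers every gene against DMSO by construction.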

Other observations

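The genes nearest to the members in the annotation did not share one direction with them. PVT1, a long non-coding RNA gene 51575 bp from MYC on the same strand, had 0.72 FPKM with DMSO, 1.33 with 2.5 μM and 1.58 with 5 μM JG231, on about 28, 66 and 93 fragments. CASC11, which overlaps MYC on the opposite strand, rested on about 3 fragments in DMSO and was listed at 0 after JG231. DDX1, an RNA helicase gene 306204 bp from MYCN, had 32.2, 37.9 and 38.7 FPKM, and NBAS, beyond it, had 3.90, 3.06 and 3.11. TRIT1, a tRNA-modifying enzyme gene next to MYCL, was higher, with 10.8, 16.5 and 13.7 FPKM. MAPKBP1, which lies 1353 bp from MGA on the same strand, had 1.24, 0.84 and 0.57 FPKM, and SGSM2, which lies 3015 bp from MNT on the opposite strand, had 4.78, 3.08 and 1.90 FPKM. METTL16, an RNA methyltransferase gene 4458 bp from MNT on the same strand, had 3.07, 3.65 and 3.58 FPKM. Near MXI1, SMNDC1 was higher, with 8.78, 13.7 and 16.0 FPKM, and ADD3 lower, with 6.75, 3.38 and 2.87. GMCL1, on the same strand as MXD1, was lower, with 12.1, 6.76 and 8.37 FPKM, and HAUS3, near MXD4, had 4.88, 5.88 and 5.96. POLN near MXD4 and ENSG00000259118 overlapping MAX rested on at most 6 fragments in any library.

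By Euclidean distance over the 3 values of log2 (FPKM + 0.1), the protein-coding genes most like MYC were RPL22L1 (4.97, 42.3 and 46.2 FPKM), SESN2 (4.07, 41.2 and 41.0) and HERPUD1 (6.28, 45.1 and 45.1), at distances of 0.26, 0.36 and 0.46. Those most like MYCN were LYPD5, ADAM11 and TMEM269, at distances of 0.21 to 0.22, all under 1 FPKM in every library. With 3 libraries such a likeness is a description only.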
